A study of Saccharomyces cerevisiae with 20 samples.

Results

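The proteasome genes of budding yeast are described here in transcript abundance and in translation. The set held 36 of the 6679 genes of the deposited table. They were listed by systematic name without a cutoff on any measured value, but with earlier results of these data known. There were 7 subunits of the core α ring, 7 of the core β ring, 10 of the base and 8 of the lid. The other 4 were RPN4, which encodes the transcription factor of these genes, and the assembly and accessory factors UMP1, BLM10 and ECM29.

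The proteasome degrades proteins that carry ubiquitin chains. Its barrel-shaped core particle is built from outer α rings, which gate entry, and inner β rings, which hold the protease sites, and its subunits are needed in equal numbers. The regulatory particle on the end of the barrel has a base, with the ring of Rpt ATPases that unfolds substrates, and a lid, which removes ubiquitin. Rpn4 binds a shared element upstream of proteasome genes and is itself degraded rapidly by the proteasome, so that loss of proteasome capacity raises its own supply.

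The cells were SK1 yeast growing vegetatively in YEPD, a rich medium, and the study asked how specific the RNA helicases Ded1 and Dbp1 are and how temperature changes their effects. In DBP1 cells the DBP1 coding sequence stood in place of that of DED1, under the DED1 regulatory regions. In DED1 cells those regions drove DED1 itself. The 4 groups were DBP1 cells at 37C, DED1 cells at 37C, DBP1 cells at 30C and DED1 cells at 30C. For each group, polyadenylated mRNA was sequenced and ribosome footprints were profiled, with 2 libraries per group and assay at 37C and 3 at 30C, or 20 libraries in all. All cells were grown to optical density 0.6 and received 100 uM cycloheximide, which halts ribosomes, for 1 min before harvest. Nothing in the labels says that replicates came from separate cultures, so the p-values measure the spread between these libraries.

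Levels are in RPKM, which scales reads to gene length and to library depth, so that genes can be compared per length. Translation efficiency is the ratio of footprint to mRNA RPKM in libraries of the same group and replicate number. Because depth is scaled out, shifts in the total amount of mRNA or of translation are invisible here, and fewer cells cannot be told apart from less RNA per cell. Depth was 3.94 to 9.69 M reads in mRNA libraries and 4.82 to 9.39 M reads in footprint libraries. For the 34 members whose reads could be recovered, a library held 308 to 5695 mRNA reads and 283 to 4442 footprint reads per gene. All 36 genes passed the filter on low values, a mean of at least 5 RPKM. The labels held: DED1 mRNA lay between 0.0765 and 3.19 RPKM in DBP1 cells and between 40.9 and 54.2 RPKM in DED1 cells.

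Proteasome subunits were abundant transcripts in every group, and footprints were more even within the core rings than mRNA was. The median of the 32 subunits was 327 RPKM of mRNA in DBP1 cells at 37C, 309 RPKM in DED1 cells at 37C, 283 RPKM in DBP1 cells at 30C and 276 RPKM in DED1 cells at 30C. The median of all tested genes was 64.4, 66.8, 57.8 and 54.3 RPKM in the same groups. Footprint medians of the subunits were 241, 235, 207 and 195 RPKM in that order of groups. Between 10.6% and 16.7% of tested genes lay above the subunit median, depending on the group and the assay.

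Among the 7 α ring subunits the coefficient of variation of footprint levels was 7.07% in DBP1 cells at 37C, 9.31% in DED1 cells at 37C, 8.81% in DBP1 cells at 30C and 8.82% in DED1 cells at 30C. For their mRNA it was 20.9%, 19.8%, 18.3% and 20.2% in the same groups. The β ring showed the same order of assays, with 14.2%, 12.1%, 11.8% and 11.8% for footprints and 39.6%, 35.5%, 35.7% and 38.0% for mRNA. In the base the values were 14.3%, 15.6%, 23.0% and 21.9% for footprints and 25.2%, 26.5%, 29.3% and 29.5% for mRNA. In the lid they were 19.4%, 17.1%, 18.9% and 17.4% for footprints and 24.6%, 25.7%, 23.7% and 23.3% for mRNA. Footprint levels were thus less spread than mRNA levels in each subcomplex and group. These spreads are descriptions over few subunits and carry no test.

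The β subunits PUP3 (YER094C) and PUP1 (YOR157C) lay at the ends of the mRNA range of the β ring and close together in footprints. Pup1 carries the trypsin-like protease site, and Pup3 is a structural β subunit without one. PUP3 mRNA averaged 588 ± 86.8 RPKM in DBP1 cells at 37C and 506 ± 47.3 RPKM in DED1 cells at 37C (SD, n = 2 each). At 30C it averaged 492 ± 56.6 RPKM in DBP1 cells and 480 ± 21.6 RPKM in DED1 cells (SD, n = 3 each). PUP1 mRNA averaged 177 ± 31.5 and 175 ± 9.04 RPKM in DBP1 and DED1 cells at 37C (SD, n = 2 each), and 168 ± 7.92 and 155 ± 14.3 RPKM in DBP1 and DED1 cells at 30C (SD, n = 3 each). PUP3 mRNA was thus 2.90 to 3.33 times PUP1 mRNA, depending on the group. PUP3 footprints were only 1.11 to 1.33 times PUP1 footprints. Translation efficiency was 0.47 to 0.55 for PUP3 and 1.27 to 1.40 for PUP1, as group means.

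The α ring held a similar pair. PRE9 (YGR135W), the α subunit that yeast can live without, averaged 419 ± 28.7 RPKM of mRNA in DED1 cells at 30C and SCL1 (YGL011C), another α subunit, 231 ± 22.8 RPKM (SD, n = 3 each). In footprints the order was turned round, with 203 ± 14.0 RPKM for PRE9 and 245 ± 8.59 RPKM for SCL1. Over the 32 subunits, Spearman's rho between mRNA and footprint level was 0.54 in DBP1 cells at 37C, 0.32 in DED1 cells at 37C, 0.50 in DBP1 cells at 30C and 0.42 in DED1 cells at 30C. Genes are not independent replicates, so these correlations are descriptions. Between mRNA and translation efficiency rho was -0.53, -0.71, -0.57 and -0.64 in the same groups, and both of these measures contain the same mRNA value.

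**Figure D1:**
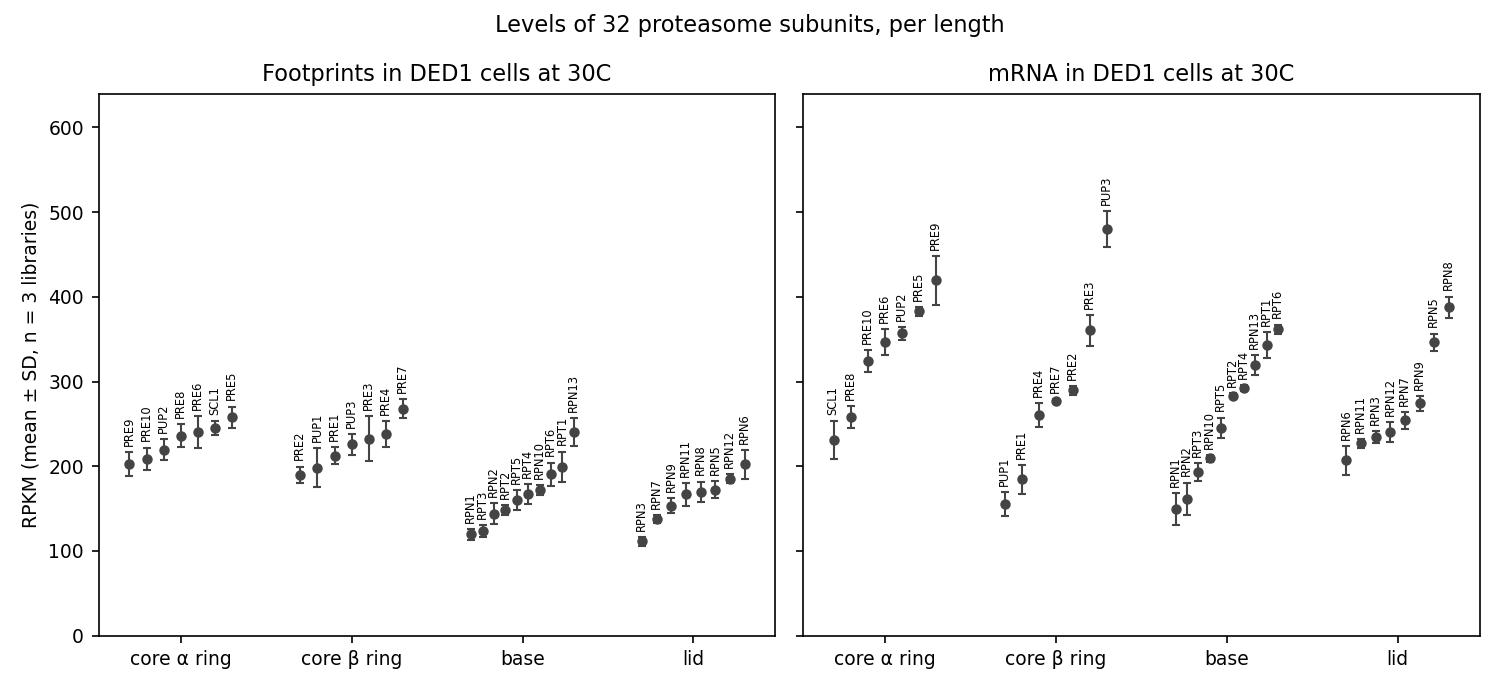
Level of each of the 32 subunits in DED1 cells at 30C, in RPKM as mean ± SD of 3 libraries, with footprints on the left and mRNA on the right. Within the α and β rings the footprint levels span a narrower range than the mRNA levels, and PUP3 and PUP1 mark the ends of the mRNA range in the β ring.

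As means over the listed genes, core subunits carried more footprints per length than subunits of the regulatory particle. The α ring mean was 1.37 to 1.59 times the base mean and 1.41 to 1.62 times the lid mean in footprints. It was higher in each of the 10 footprint libraries, and so was the β ring mean. In mRNA the α ring was also above base and lid in all 10 libraries, by 1.12 to 1.39 times. The β ring was above the lid in 8 of 10 mRNA libraries. Coding length differed between these subcomplexes too: the median was 765 nt for α, 764 nt for β, 1309.5 nt for base and 1236 nt for lid subunits. The part of length in the difference was not tested.

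Single subunits stood at the ends of these ranges. The ranks below are by mean footprints over all 10 libraries and changed between groups. At 30C, for example, PRE5 was the highest α subunit and RPN1 the lowest base subunit in both strains. Over all libraries SCL1 was the highest and PRE9 the lowest α subunit. PRE7 (YBL041W) was the highest β subunit, and PRE2 (YPR103W), which carries the chymotrypsin-like site, was the lowest. In the base RPN13 (YLR421C), a ubiquitin receptor, was the highest and the ATPase RPT3 (YDR394W) the lowest. Among the listed lid genes RPN6 (YDL097C), which clamps the lid to the core, was the highest and RPN3 (YER021W), a scaffold subunit, the lowest. SEM1 encodes a further lid subunit but was not in this list, and it was counted with the proteasome-associated genes. Its footprints were 347 to 472 RPKM over all libraries, above the 184 to 252 RPKM of RPN6. They are not part of the lid values. RPN13 averaged 243 ± 25.5 and 262 ± 17.7 RPKM of footprints in DBP1 and DED1 cells at 37C (SD, n = 2 each), and 251 ± 28.0 and 240 ± 16.4 RPKM in DBP1 and DED1 cells at 30C (SD, n = 3 each). RPN3 averaged 132 ± 14.9 and 141 ± 5.07 RPKM in DBP1 and DED1 cells at 37C, and 114 ± 6.68 and 111 ± 5.07 RPKM in DBP1 and DED1 cells at 30C.

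Growth at 37C went with more RPN4 (YDL020C) mRNA in both strains. RPN4 mRNA was 108 and 204 RPKM in DBP1 cells at 37C, against 72.3, 82.1 and 76.8 RPKM in DBP1 cells at 30C. It was 187 and 168 RPKM in DED1 cells at 37C, against 69.9, 71.0 and 66.6 RPKM in DED1 cells at 30C. No 37C library overlapped the 30C libraries of its strain. In limma fits of log2(RPKM + 1), here and below with p-values adjusted by the Benjamini-Hochberg method over all tested genes, RPN4 mRNA rose at 37C by 0.94 ± 0.20 (log2, SE; adjusted p = 0.00501) in DBP1 cells. The rise in DED1 cells was 1.35 ± 0.20 (adjusted p = 0.00067). Among 5454 genes ranked from the largest increase, RPN4 stood at 172 in DBP1 cells and at 157 in DED1 cells. The 2 libraries of DBP1 cells at 37C differed widely, and without replicate 2 at 37C the log2 difference in DBP1 cells was 0.49.

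RPN4 footprints rose as well. They were 44.1 and 89.5 RPKM in DBP1 cells at 37C, against 37.3, 36.6 and 38.3 RPKM in DBP1 cells at 30C. DED1 cells had 89.0 and 73.7 RPKM at 37C, against 35.7, 35.5 and 33.2 RPKM at 30C. Again the temperatures did not overlap within a strain, but replicate 1 of DBP1 cells at 37C lay close to the 30C values. The log2 difference was 0.74 ± 0.23 (SE, adjusted p = 0.0280) in DBP1 cells and 1.20 ± 0.23 (adjusted p = 0.00206) in DED1 cells. In DBP1 cells this call ended without replicate 2 at 37C, with a log2 difference of 0.23 and adjusted p = 0.193. It also ended without any one of the DBP1 libraries at 30C, with adjusted p of 0.0606, 0.0608 and 0.0564 for replicates 1, 2 and 3.

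Translation efficiency of RPN4 was at the low end of the 36 genes. It was 0.408 and 0.439 in DBP1 cells at 37C, 0.475 and 0.440 in DED1 cells at 37C, 0.516, 0.445 and 0.498 in DBP1 cells at 30C, and 0.510, 0.501 and 0.499 in DED1 cells at 30C. The log2 difference between temperatures was -0.20 in DBP1 cells (adjusted p = 0.902) and -0.15 in DED1 cells (adjusted p = 0.935), with a standard error of 0.33.

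UMP1 (YBR173C), the chaperone that guides core assembly and becomes the first substrate of the finished core, had the highest mean translation efficiency of the 36 genes. UMP1 mRNA was 232 and 257 RPKM in DBP1 cells at 37C, against 187, 188 and 180 RPKM in DBP1 cells at 30C. It was 230 and 244 RPKM in DED1 cells at 37C, against 187, 171 and 152 RPKM in DED1 cells at 30C. The temperatures did not overlap in either strain. UMP1 mRNA rose by 0.40 ± 0.10 (log2, SE; adjusted p = 0.0107) in DBP1 cells and by 0.48 ± 0.10 (adjusted p = 0.00339) in DED1 cells. Its footprints were 353 and 456 RPKM in DBP1 cells at 37C, against 296, 328 and 290 RPKM in DBP1 cells at 30C. They were 383 and 473 RPKM in DED1 cells at 37C, against 295, 275 and 263 RPKM in DED1 cells at 30C. These also did not overlap, and they rose by 0.40 ± 0.13 (adjusted p = 0.0320) in DBP1 cells and by 0.62 ± 0.13 (adjusted p = 0.00314) in DED1 cells. Without DBP1 replicate 2 at 37C the calls in DBP1 cells ended, with log2 differences of 0.32 in mRNA (adjusted p = 0.0839) and 0.22 in footprints (adjusted p = 0.258). The footprint call in DBP1 cells also ended without replicate 1 or 3 at 30C, with adjusted p of 0.0779 and 0.0875. With median-of-ratios scaling only the UMP1 footprint call in DED1 cells held. Group means of UMP1 translation efficiency were 1.65 and 1.80 in DBP1 and DED1 cells at 37C, and 1.65 and 1.64 in DBP1 and DED1 cells at 30C.

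ECM29 (YHL030W), a protein that tethers core and regulatory particle, rose in both assays. BLM10 (YFL007W), which caps the core in place of a regulatory particle, did not pass in either. With median-of-ratios scaling the ECM29 calls in DED1 cells ended in both assays. ECM29 mRNA was 23.5 and 27.9 RPKM in DBP1 cells at 37C, against 15.2, 18.1 and 14.1 RPKM in DBP1 cells at 30C. ECM29 mRNA of DED1 cells was 23.3 and 20.6 RPKM at 37C, against 17.3, 13.3 and 12.6 RPKM at 30C. The log2 difference was 0.67 ± 0.16 (SE, adjusted p = 0.00898) in DBP1 cells and 0.59 ± 0.16 (adjusted p = 0.0117) in DED1 cells. ECM29 footprints were 27.1 and 26.6 RPKM in DBP1 cells at 37C, against 16.2, 18.3 and 14.9 RPKM in DBP1 cells at 30C. ECM29 footprints of DED1 cells were 21.7 and 23.5 RPKM at 37C, against 18.9, 15.7 and 14.0 RPKM at 30C. Every 37C library of a strain was above its 30C libraries in both assays, and footprints rose by 0.67 ± 0.13 (adjusted p = 0.00337) in DBP1 cells and by 0.46 ± 0.13 (adjusted p = 0.0154) in DED1 cells. The mRNA call ended in DBP1 cells without replicate 2 at 37C (adjusted p = 0.0759) and in DED1 cells without replicate 1 at 37C (adjusted p = 0.0864). The footprint call in DED1 cells ended without replicate 2 at 37C (adjusted p = 0.0861).

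BLM10 mRNA was 26.3 and 21.9 RPKM in DBP1 cells at 37C, 22.7 and 16.4 RPKM in DED1 cells at 37C, 21.0, 21.1 and 21.4 RPKM in DBP1 cells at 30C, and 22.0, 18.8 and 20.1 RPKM in DED1 cells at 30C. Its footprints were 19.8 and 13.6 RPKM, 16.7 and 9.69 RPKM, 16.0, 14.4 and 16.1 RPKM, and 15.7, 15.5 and 15.3 RPKM in the same groups. In both strains replicate 1 at 37C was the higher of the pair. In mRNA both 37C libraries of DBP1 cells lay above their 30C libraries, and those of DED1 cells lay on both sides. In footprints the 37C libraries of each strain lay on both sides of its 30C libraries. The log2 difference in footprints was 0.08 ± 0.21 (SE, adjusted p = 0.769) in DBP1 cells and -0.26 ± 0.21 (adjusted p = 0.307) in DED1 cells.

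**Figure D2:**
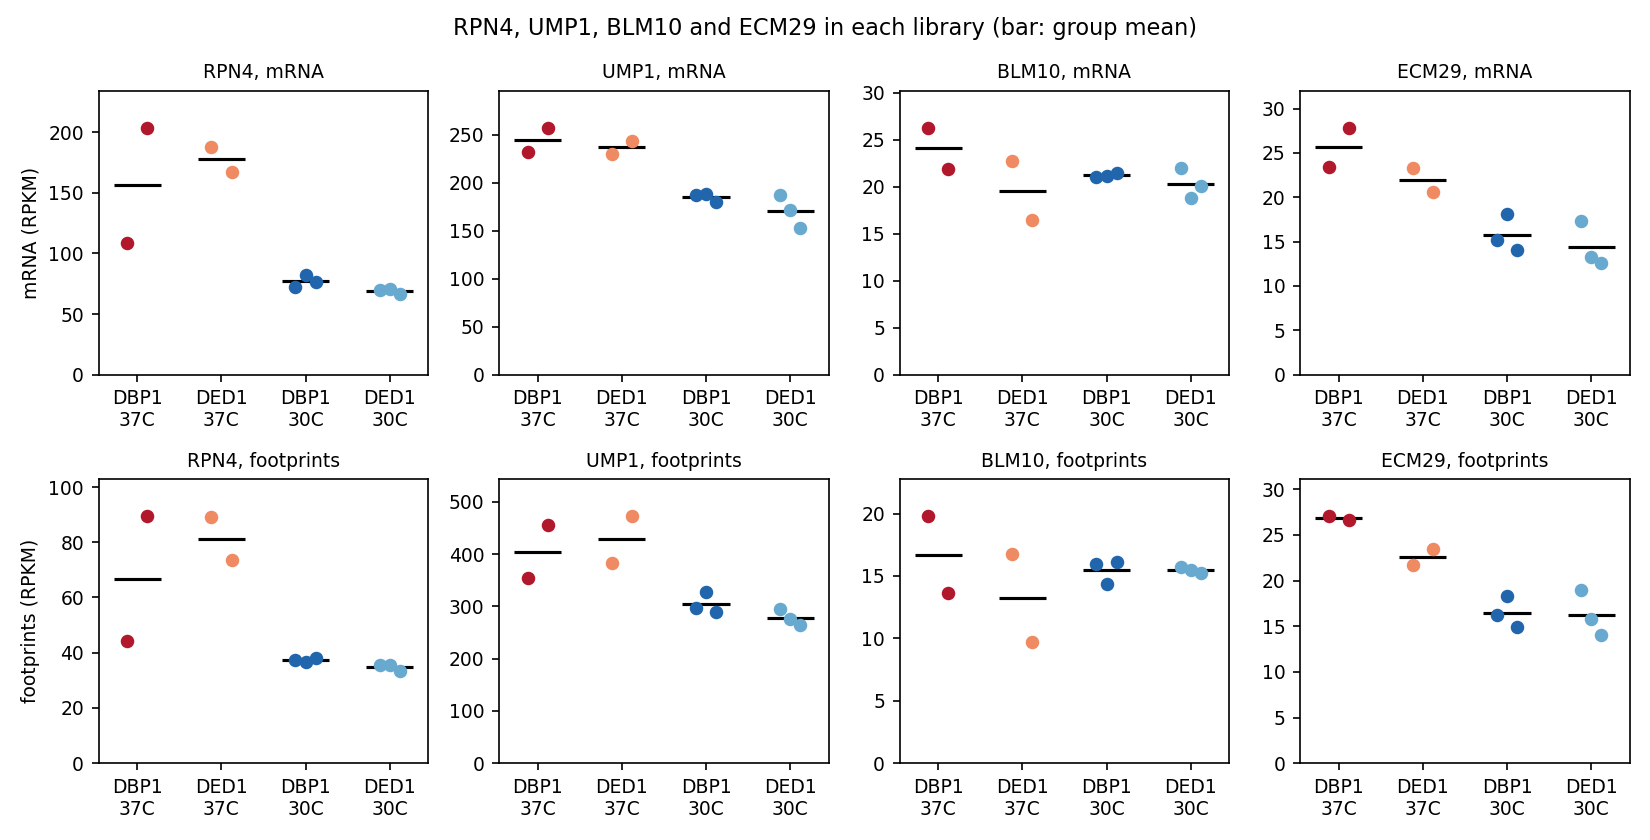
RPN4, UMP1, BLM10 and ECM29 in each library, in RPKM, with mRNA in the upper row and footprints in the lower row, points for libraries and bars for group means. RPN4, UMP1 and ECM29 are higher at 37C in both strains. BLM10 overlaps between temperatures except in mRNA of DBP1 cells, where both 37C libraries are higher. The 2 RPN4 values of DBP1 cells at 37C lie far apart, at 108 and 204 RPKM of mRNA.

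In footprints most of the 36 genes rose at 37C. In DBP1 cells 25 of 36 passed the test upward and none downward, where 21.2% of all tested genes rose and 17.6% fell. In DED1 cells 26 of 36 rose and none fell, where 38.9% of all tested genes rose and 13.6% fell. The median log2 difference of the 36 genes was 0.37 in DBP1 cells and 0.32 in DED1 cells, against 0.10 and 0.21 over all tested genes. The calls were spread over the complex. In DBP1 cells they held 6 of 7 α, 5 of 7 β, 7 of 10 base and 4 of 8 lid subunits, and in DED1 cells 5 of 7, 6 of 7, 7 of 10 and 5 of 8. RPN4, UMP1 and ECM29 were the others. All 37C libraries of a strain were above all of its 30C libraries for 30 of the 36 genes in DBP1 cells and for 32 in DED1 cells, where 37.7% and 52% of all tested genes were so.

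These footprint counts depend on how libraries are scaled and on single libraries. With median-of-ratios scaling, which sets the typical gene to no change, the median of all genes moved by -0.08 in DBP1 cells and by -0.20 in DED1 cells. Then 15 members rose in DBP1 cells, among them RPN4, ECM29, SCL1, PUP2, PRE1, PRE2, RPN1, RPN2 and RPN8 but not UMP1 (adjusted p = 0.0988). In DED1 cells 3 rose (PUP2, RPN4 and UMP1), while 15.4% and 20.9% of all tested genes rose and 21% and 22.9% fell, and the members' medians were 0.29 and 0.11. In DBP1 cells the count was 5 without replicate 2 at 37C, where 12.9% of all tested genes rose, and 16 without replicate 1 at 30C, where 17.0% rose. The count in DED1 cells was 7 without replicate 2 at 37C, 16 without replicate 2 at 30C and 14 without replicate 3 at 30C, where 32.1%, 32.7% and 31.98% of all tested genes rose. Replicate 2 at 37C held more subunit footprints than replicate 1 in both strains: the mean over the 32 subunits was 278 against 238 RPKM in DBP1 cells and 255 against 225 RPKM in DED1 cells.

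In mRNA few of the genes passed the test. The difference was positive for 34 of 36 genes in DBP1 cells and for 35 in DED1 cells. Among all tested genes 68.8% and 73.6% were positive. In DBP1 cells 5 of 36 passed upward (RPN4, RPN1, ECM29, UMP1 and RPN2) and none downward, where 30% of all tested genes rose and 13.1% fell. In DED1 cells 7 passed upward (RPN4, UMP1, ECM29, RPN2, RPN12, RPN1 and RPN9) and none downward, where 43.1% of all tested genes rose and 10.3% fell. No core subunit passed in either strain. All 37C libraries of a strain lay above its 30C libraries for 10 of 36 genes in DBP1 cells and for 21 in DED1 cells, where 46.2% and 56.5% of all tested genes did so. The members' median was 0.19 in DBP1 cells and 0.17 in DED1 cells, against 0.18 and 0.26 over all tested genes. With median-of-ratios scaling, which moved the median of all genes by -0.16 and -0.25, the members' median was 0.03 in DBP1 cells and turned to -0.09 in DED1 cells. The difference turned negative for 11 of 36 genes in DBP1 cells and for 26 in DED1 cells, SCL1, PRE1, PRE2 and RPN11 in both strains and RPN8 in DED1 cells among them, none of which had passed. Then RPN4, RPN1 and ECM29 rose and RPN13 fell in DBP1 cells, RPN4 alone rose in DED1 cells, and 13.4% and 17.8% of all tested genes rose while 19.1% and 20.8% fell. In DBP1 cells the mRNA count was 14 without replicate 1 at 37C and 1 without replicate 2 at 37C, where 21.8% and 15.0% of all tested genes rose. The mRNA count in DED1 cells was 4, 3, 4 and 3 without 30C replicate 2, 30C replicate 3, 37C replicate 1 and 37C replicate 2, where 37.5%, 36.6%, 29.9% and 31.3% of all tested genes rose.

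**Figure D3:**
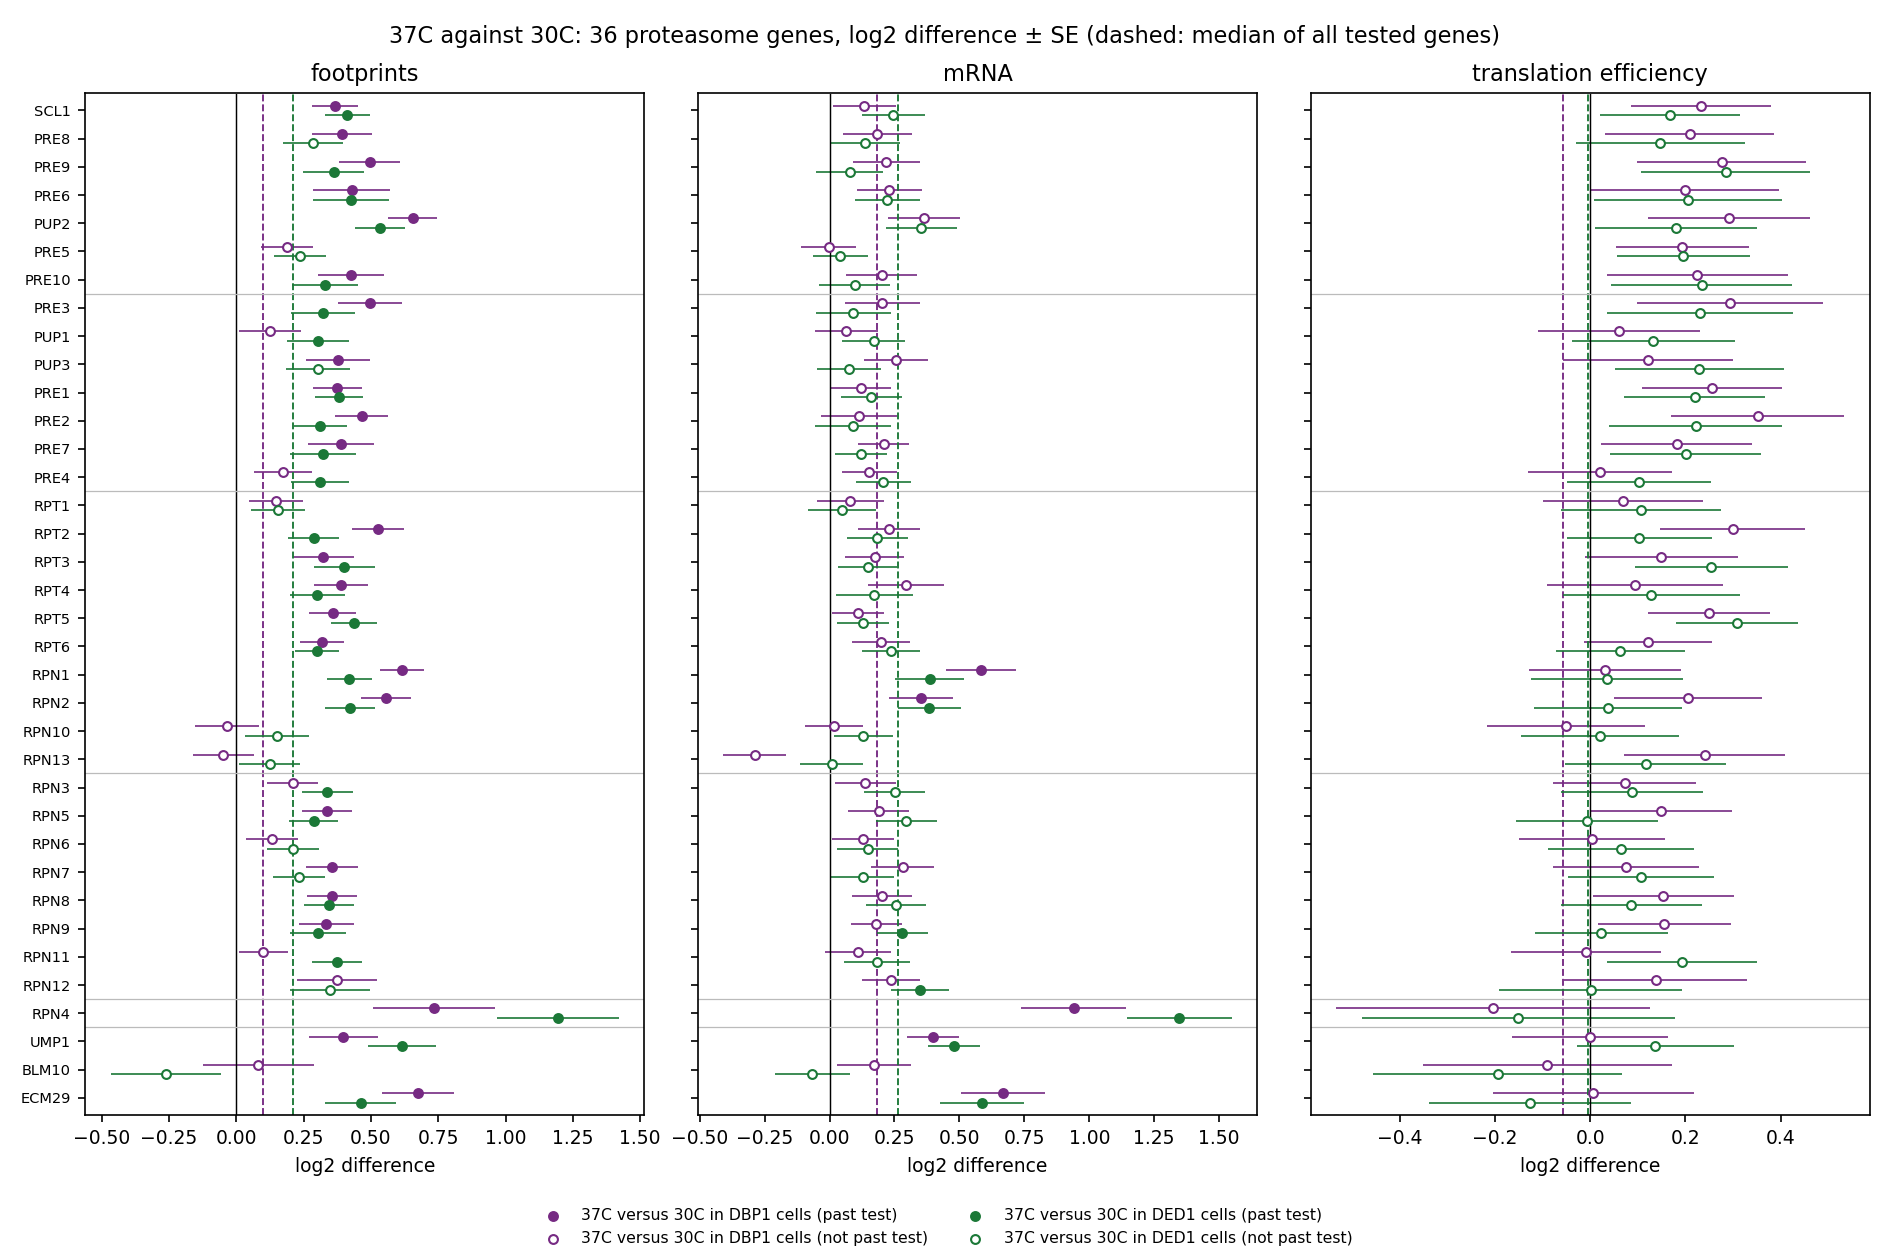
Log2 difference at 37C against 30C for each of the 36 genes in footprints, mRNA and translation efficiency, with bars of 1 SE, filled points for genes past the test and dashed lines for the median of all tested genes. Footprint points lie mostly right of the dashed lines, whereas mRNA points lie around or left of them apart from RPN4 and a few others.

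Means over subunits were higher at 37C in footprints in each subcomplex, and differences between subcomplexes were not tested. The α ring mean of footprints was 306 and 361 RPKM in DBP1 cells at 37C, against 235, 265 and 245 RPKM in DBP1 cells at 30C, a ratio of means of 1.34. In DED1 cells it was 276 and 321 RPKM at 37C, against 243, 227 and 220 RPKM at 30C, a ratio of 1.30. The β ring mean was 281 and 331 RPKM in DBP1 cells at 37C, against 234, 254 and 232 RPKM at 30C, and 257 and 304 RPKM in DED1 cells at 37C, against 234, 224 and 213 RPKM at 30C. None of these overlapped between temperatures. The ratio was 1.28 and 1.25 for the β ring, 1.23 and 1.22 for the base and 1.22 and 1.24 for the lid, in DBP1 and DED1 cells. Over all 32 subunits the ratio was 1.27 in DBP1 cells and 1.25 in DED1 cells for footprints, and 1.14 and 1.13 for mRNA.

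**Figure D4:**
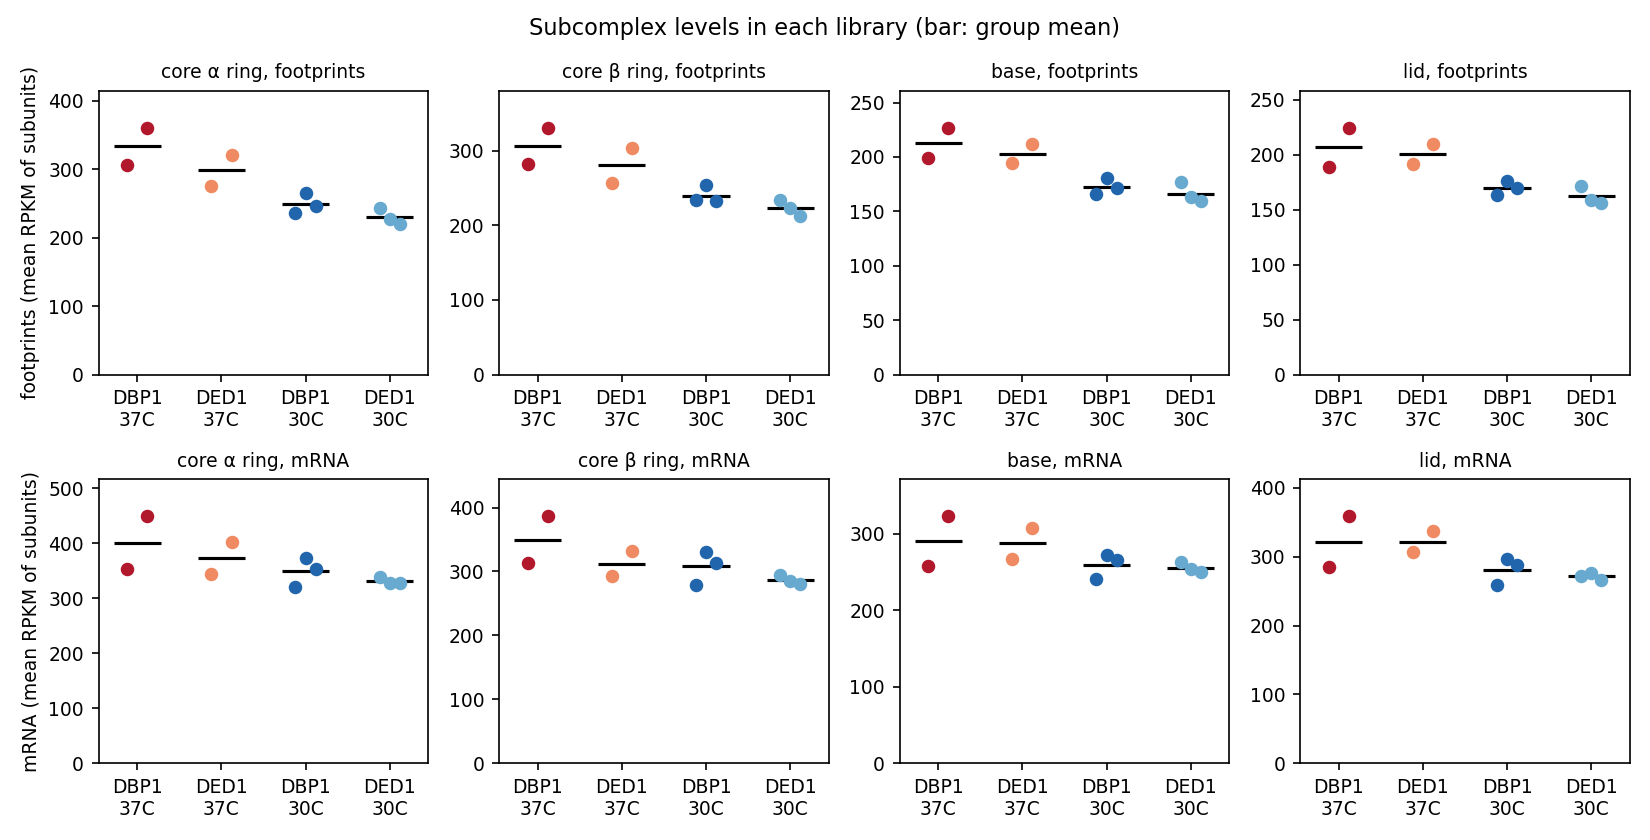
Mean RPKM over the subunits of the α ring, β ring, base and lid in each library, with footprints in the upper row and mRNA in the lower row and bars for group means. In footprints the 37C libraries of both strains lie above their 30C libraries in each subcomplex, and replicate 2 at 37C lies above replicate 1.

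The core subunits given next were picked for the smallest adjusted p of their ring in mRNA or footprints. Their differences may therefore be larger than those of the other subunits. Over all core subunits the median log2 difference in footprints was 0.39 in DBP1 cells and 0.32 in DED1 cells. With median-of-ratios scaling the footprint calls of SCL1, PRE2 and PRE1 in DED1 cells ended, and those in DBP1 cells held. PUP2 kept its footprint calls in both strains. PUP2 (YGR253C), an α ring subunit, had 339 and 393 RPKM of footprints in DBP1 cells at 37C, against 220, 240 and 235 RPKM in DBP1 cells at 30C. PUP2 in DED1 cells had 305 and 330 RPKM at 37C, against 231, 221 and 206 RPKM at 30C. The groups were well apart, and footprints rose by 0.66 ± 0.09 (log2, SE; adjusted p = 0.000515) in DBP1 cells and by 0.53 ± 0.09 (adjusted p = 0.00118) in DED1 cells. PUP2 mRNA was 428 and 560 RPKM in DBP1 cells at 37C, against 349, 401 and 393 RPKM in DBP1 cells at 30C. PUP2 mRNA of DED1 cells was 399 and 522 RPKM at 37C, against 365, 351 and 355 RPKM at 30C. Its mRNA was higher in all 37C libraries, with log2 differences of 0.36 and 0.35 and adjusted p of 0.0548 and 0.0512 in DBP1 and DED1 cells.

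SCL1 had 335 and 367 RPKM of footprints in DBP1 cells at 37C, against 266, 288 and 262 RPKM in DBP1 cells at 30C. SCL1 in DED1 cells had 309 and 344 RPKM at 37C, against 250, 250 and 235 RPKM at 30C. The temperatures did not overlap, and footprints rose by 0.37 ± 0.08 (log2, SE; adjusted p = 0.00767) in DBP1 cells and by 0.41 ± 0.08 (adjusted p = 0.00305) in DED1 cells. SCL1 mRNA was 250 and 313 RPKM in DBP1 cells at 37C, against 264, 268 and 235 RPKM at 30C, which overlapped. It was 264 and 282 RPKM in DED1 cells at 37C, against 255, 227 and 210 RPKM at 30C, which did not overlap. Its mRNA did not pass in either strain (adjusted p of 0.385 and 0.109). The footprint call in DBP1 cells ended without replicate 2 at 37C, with adjusted p = 0.0674.

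PRE2, the β subunit with the chymotrypsin-like site, had 242 and 292 RPKM of footprints in DBP1 cells at 37C, against 184, 205 and 189 RPKM in DBP1 cells at 30C. PRE2 in DED1 cells had 228 and 244 RPKM at 37C, against 193, 198 and 179 RPKM at 30C. Footprints were higher in all 37C libraries and rose by 0.47 ± 0.10 (log2, SE; adjusted p = 0.00507) in DBP1 cells and by 0.31 ± 0.10 (adjusted p = 0.0238) in DED1 cells. PRE2 mRNA was 288 and 392 RPKM in DBP1 cells at 37C, against 289, 335 and 308 RPKM at 30C, and 269 and 354 RPKM in DED1 cells at 37C, against 292, 293 and 284 RPKM at 30C. The mRNA overlapped between temperatures in both strains, with 1 library at 37C below and 1 above those at 30C. The footprint call ended without replicate 2 at 37C in DBP1 cells (adjusted p = 0.0524). In DED1 cells it ended without 30C replicate 3, 37C replicate 1 or 37C replicate 2 (adjusted p of 0.0687, 0.0614 and 0.124).

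PRE1 (YER012W), a structural β subunit, had 307 and 316 RPKM of footprints in DBP1 cells at 37C, against 244, 246 and 231 RPKM in DBP1 cells at 30C. PRE1 in DED1 cells had 254 and 302 RPKM at 37C, against 222, 214 and 202 RPKM at 30C. The temperatures did not overlap, and footprints rose by 0.38 ± 0.09 in both strains (log2, SE; adjusted p of 0.00881 and 0.00625 in DBP1 and DED1 cells). PRE1 mRNA was 208 and 231 RPKM in DBP1 cells at 37C, against 186, 229 and 193 RPKM at 30C, and 197 and 214 RPKM in DED1 cells at 37C, against 200, 187 and 166 RPKM at 30C. That mRNA overlapped and did not pass. The footprint call ended without replicate 2 at 37C of the same strain, with adjusted p of 0.0544 in DBP1 cells and 0.0610 in DED1 cells.

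RPN1 (YHR027C) and RPN2 (YIL075C) are the large scaffold subunits of the base on which ubiquitin receptors and shuttle proteins dock. Picked in the same way, they rose in both assays. With median-of-ratios scaling their calls in DED1 cells ended in both assays. The mRNA call of RPN2 in DBP1 cells ended too. RPN1 footprints were 187 and 194 RPKM in DBP1 cells at 37C, against 118, 129 and 126 RPKM in DBP1 cells at 30C. RPN1 footprints of DED1 cells were 155 and 166 RPKM at 37C, against 126, 119 and 113 RPKM at 30C. They rose by 0.61 ± 0.08 (log2, SE; adjusted p = 0.000426) in DBP1 cells and by 0.42 ± 0.08 (adjusted p = 0.00249) in DED1 cells. RPN1 mRNA was 204 and 262 RPKM in DBP1 cells at 37C, against 152, 166 and 145 RPKM at 30C, and 184 and 205 RPKM in DED1 cells at 37C, against 170, 145 and 133 RPKM at 30C. All 37C libraries were above the 30C ones, and mRNA rose by 0.58 ± 0.13 (adjusted p = 0.00713) in DBP1 cells and by 0.38 ± 0.13 (adjusted p = 0.0333) in DED1 cells. The mRNA call ended in DBP1 cells without replicate 2 at 37C (adjusted p = 0.0714). In DED1 cells it ended without 30C replicate 2 or 3 or either 37C replicate (adjusted p of 0.0634 to 0.180).

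RPN2 footprints were 205 and 225 RPKM in DBP1 cells at 37C, against 144, 154 and 139 RPKM in DBP1 cells at 30C. RPN2 footprints of DED1 cells were 189 and 196 RPKM at 37C, against 158, 140 and 133 RPKM at 30C. The temperatures did not overlap, and footprints rose by 0.56 ± 0.09 (log2, SE; adjusted p = 0.00149) in DBP1 cells and by 0.42 ± 0.09 (adjusted p = 0.00465) in DED1 cells. RPN2 mRNA was 195 and 239 RPKM in DBP1 cells at 37C, against 162, 184 and 162 RPKM at 30C, and 207 and 214 RPKM in DED1 cells at 37C, against 183, 148 and 153 RPKM at 30C. It rose by 0.35 ± 0.12 (adjusted p = 0.0404) in DBP1 cells and by 0.38 ± 0.12 (adjusted p = 0.0225) in DED1 cells. The mRNA call in DBP1 cells ended without 30C replicate 1 or 3 or 37C replicate 2 of DBP1 cells, and without either 37C library of DED1 cells (adjusted p of 0.0527 to 0.303). The call in DED1 cells ended without 30C replicate 2 or 3 or either 37C replicate (adjusted p of 0.0618 to 0.103).

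RPN10 (YHR200W) and RPN13, picked after their values were seen, did not pass in either assay or strain. The exception was RPN13 mRNA, which fell in DBP1 cells with median-of-ratios scaling. RPN10 footprints were 144 and 188 RPKM in DBP1 cells at 37C, against 166, 175 and 165 RPKM at 30C. In DED1 cells they were 174 and 208 RPKM at 37C, against 178, 172 and 166 RPKM at 30C. RPN13 differed by -0.05 ± 0.11 (log2, SE; adjusted p = 0.756) in DBP1 cells and by 0.12 ± 0.11 (adjusted p = 0.375) in DED1 cells in footprints. Its mRNA differed by -0.29 ± 0.12 (adjusted p = 0.0768) in DBP1 cells and by 0.01 ± 0.12 (adjusted p = 0.963) in DED1 cells. The remaining member with no footprint call in either strain from the base was the ATPase RPT1 (YKL145W). A test of the difference between subunits was not run.

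In the lid, RPN11 (YFR004W), the deubiquitinating enzyme, and RPN8 (YOR261C), its partner subunit, had the smallest adjusted p of the listed lid genes. With median-of-ratios scaling neither kept its footprint call in DED1 cells. RPN11 footprints were 181 and 191 RPKM in DBP1 cells at 37C, against 175, 180 and 166 RPKM in DBP1 cells at 30C. RPN11 footprints of DED1 cells were 205 and 227 RPKM at 37C, against 179, 169 and 152 RPKM at 30C. They rose by 0.37 ± 0.09 (log2, SE; adjusted p = 0.00759) in DED1 cells, and differed by 0.10 ± 0.09 (adjusted p = 0.399) in DBP1 cells. The call ended without DED1 replicate 2 at 37C (adjusted p = 0.0625). RPN11 mRNA was 211 and 288 RPKM in DBP1 cells at 37C, against 220, 237 and 228 RPKM at 30C, and 237 and 279 RPKM in DED1 cells at 37C, against 222, 232 and 226 RPKM at 30C, and did not pass.

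RPN8 footprints were 221 and 254 RPKM in DBP1 cells at 37C, against 176, 189 and 189 RPKM in DBP1 cells at 30C. RPN8 footprints of DED1 cells were 209 and 221 RPKM at 37C, against 184, 163 and 162 RPKM at 30C. They did not overlap and rose by 0.36 ± 0.09 (log2, SE; adjusted p = 0.0136) in DBP1 cells and by 0.34 ± 0.09 (adjusted p = 0.0119) in DED1 cells. The calls ended without replicate 2 at 37C of the same strain, with adjusted p of 0.119 in DBP1 cells and 0.0731 in DED1 cells. RPN8 mRNA was 417 and 505 RPKM in DBP1 cells at 37C, against 350, 422 and 429 RPKM at 30C, and 442 and 486 RPKM in DED1 cells at 37C, against 375, 400 and 388 RPKM at 30C. Its mRNA overlapped in DBP1 cells, did not overlap in DED1 cells, and passed in neither (adjusted p of 0.178 and 0.0836).

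That footprints and mRNA differed in their number of calls is not itself a test of translation. In the fit of footprints against mRNA, 0 of 36 genes passed at 37C against 30C in either strain, where 1.02% of tested genes passed in DBP1 cells and 0.985% in DED1 cells. At an unadjusted p under 0.05 there were 0 members in DBP1 cells and 1 in DED1 cells. The standard error was larger there, with a median over members of 0.16 on the log2 scale, against 0.10 for footprints and 0.12 for mRNA. The log2 differences in efficiency were positive for all 14 core subunits in both strains. Of the 18 subunits of the regulatory particle, 16 were positive in DBP1 cells and 17 in DED1 cells. Among all tested genes 39% were positive in DBP1 cells and 49.2% in DED1 cells. The median of the core subunits was 0.22 in DBP1 cells and 0.20 in DED1 cells. For the regulatory particle it was 0.13 and 0.09, against -0.06 and -0.005 over all tested genes.

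Footprint and mRNA libraries with the same number deviated together from their group means. With that pairing in the model, 2 members passed upward in DBP1 cells and 1 in DED1 cells. The log2 difference in efficiency was 0.35 for PRE2 (adjusted p = 0.0454) and 0.30 for the ATPase gene RPT2 (YDL007W) (adjusted p = 0.0358) in DBP1 cells, and 0.31 for the ATPase gene RPT5 (YOR117W) (adjusted p = 0.0391) in DED1 cells. In the paired model 0.964% of tested genes passed upward in DBP1 cells and 2.83% in DED1 cells. PRE2 efficiency was 0.838 and 0.747 in DBP1 cells at 37C, against 0.635, 0.611 and 0.612 in DBP1 cells at 30C, with no overlap.

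Exchange of the helicase went with no call among the 36 genes. In DBP1 against DED1 cells, 0 of 36 passed at 37C, where 0.963% of tested genes passed in footprints, 0.055% in mRNA and 0.0201% in translation efficiency. At 30C, 0 of 36 passed, where 13.5% of tested genes passed in footprints, 9.3% in mRNA and 0.0402% in efficiency. At an unadjusted p under 0.05 the count was 2 (RPT2 and RPN1) for footprints at 37C and 0 for each of the others. The median log2 difference of the 36 genes at 37C was 0.11 in footprints and 0.06 in mRNA, against -0.08 and -0.05 over all tested genes. At 30C it was 0.08 and 0.06, against 0.06 and 0.04 over all tested genes. At 37C the difference was positive for 28 of 36 genes in footprints and for 26 in mRNA, where 35.4% and 38.4% of all tested genes were positive. At 30C it was positive for 34 and 32, where 59.7% and 59.1% were positive. These counts carry no test, and genes are not independent replicates.

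A p that misses the threshold does not show equality, and the intervals bound the difference. For the 14 core subunits the 95% intervals of the log2 difference in footprints ran from -0.32 to 0.54 at 37C and from -0.21 to 0.40 at 30C, taking the lowest and highest limits over subunits. For the 18 subunits of the regulatory particle they ran from -0.50 to 0.50 at 37C and from -0.27 to 0.33 at 30C. In mRNA the limits were -0.29 and 0.58 for the core and -0.54 and 0.58 for the regulatory particle at 37C. RPN4 had the widest of these intervals in the mRNA comparison at 37C, a log2 difference of -0.25 between -0.74 and 0.24. Footprint means over the 32 subunits were 258 and 240 RPKM in DBP1 and DED1 cells at 37C, a ratio of 1.07, and 203 and 192 RPKM in DBP1 and DED1 cells at 30C, a ratio of 1.06.

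The temperature difference was also compared between strains. For the difference at 37C against 30C in DBP1 cells minus that in DED1 cells, 0 of 36 genes passed, where 12% of tested genes passed in footprints, 5.23% in mRNA and 0% in efficiency. No member had an unadjusted p under 0.05 in any of these. RPN4 differed by -0.46 ± 0.32 (log2, SE; adjusted p = 0.360) in footprints and by -0.41 ± 0.29 (adjusted p = 0.420) in mRNA. Without replicate 2 of DBP1 cells at 37C, RPN4 passed, with -0.96 (adjusted p = 0.0101) in footprints and -0.86 (adjusted p = 0.0171) in mRNA. RPN4 footprints then also passed as lower in DBP1 than in DED1 cells at 37C, with -0.86 (adjusted p = 0.0481). These values rest on a lone DBP1 library at 37C, which is assumed to vary like the other groups.

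**Figure D5:**
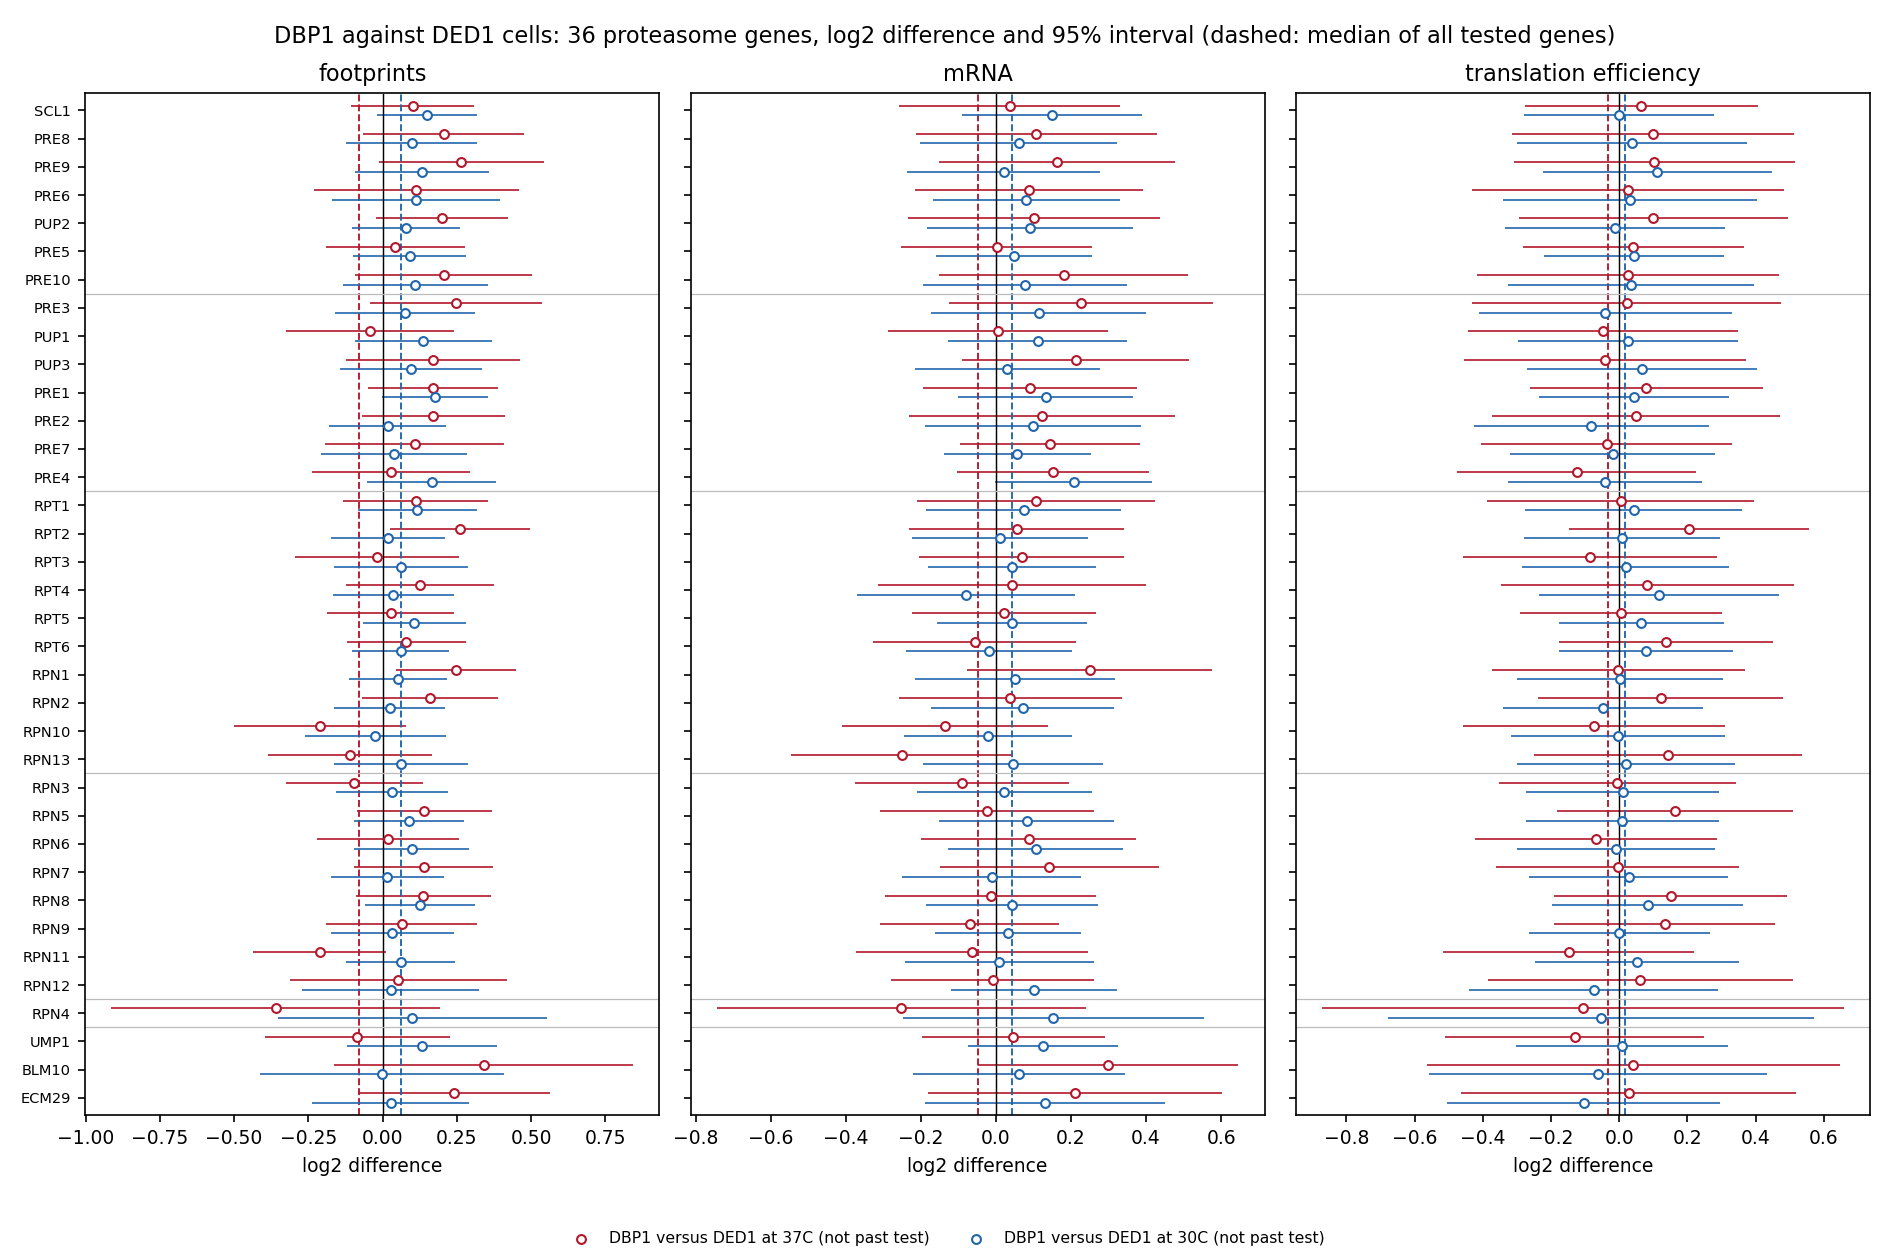
Log2 difference in DBP1 against DED1 cells for each of the 36 genes in footprints, mRNA and translation efficiency, with 95% intervals and dashed lines for the median of all tested genes, at 37C and at 30C. No gene passed the adjusted test, and RPN4 and BLM10 have the widest intervals in footprints.

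Genes around the proteasome were taken from 4 lists chosen by function, with earlier results of these data known. Of 9 dedicated assembly chaperones, 3 rose in DBP1 cells and 5 in DED1 cells in footprints at 37C, and 3 and 6 in mRNA. For these lists too, the shares of all tested genes that rose were 21.2% and 38.9% in footprints and 30% and 43.1% in mRNA, in DBP1 and DED1 cells, and the lists' counts can be read only against them. The base chaperone NAS2 had footprints of 57.5 and 65.0 RPKM in DBP1 cells at 37C, against 36.5, 38.4 and 38.6 RPKM in DBP1 cells at 30C. NAS2 in DED1 cells had 76.1 and 67.5 RPKM at 37C, against 37.1, 31.7 and 33.5 RPKM at 30C. The temperatures were far apart, with log2 differences of 0.68 (adjusted p = 0.000705) and 1.05 (adjusted p = 6.21e-05). HSM3, another base chaperone, rose in footprints by 0.59 in DBP1 cells and by 0.93 in DED1 cells. PBA1, a chaperone of the α ring, rose by 0.48 and 0.61. TMA17, a stress-induced base chaperone, rose by 0.78 in DED1 cells (adjusted p = 0.00327) and did not pass in DBP1 cells.

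Of 6 proteasome-associated genes, a list that held the lid gene SEM1, 4 rose in DBP1 cells and 6 in DED1 cells in footprints. In mRNA 3 and 5 rose. SPG5, a regulator of the proteasome in stationary cells, rose in footprints by 0.81 in DBP1 cells (adjusted p = 0.00011) and by 1.33 in DED1 cells (adjusted p = 1.4e-05). FUB1, which encodes a proteasome-binding protein, rose by 0.99 in DBP1 cells (adjusted p = 0.000133) and by 1.66 in DED1 cells (adjusted p = 1.42e-05). The proteasome-bound ubiquitin ligase gene HUL5 rose by 0.50 and 0.99, and the deubiquitinase gene UBP6 by 0.43 and 0.38. The HUL5 and UBP6 calls in DBP1 cells ended without replicate 2 at 37C (adjusted p of 0.0760 and 0.0750), and the UBP6 call in DED1 cells without its replicate 2 at 37C (adjusted p = 0.0853). With median-of-ratios scaling the UBP6 footprint difference in DED1 cells was 0.17 (adjusted p = 0.227).

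Of 19 genes for ubiquitin, its conjugation and Cdc48, 8 rose and 4 fell in each strain in footprints. In mRNA 7 rose and 3 fell in DBP1 cells, and 8 rose and 3 fell in DED1 cells. In DED1 cells 8 of 19 is close to the share of all tested genes that rose, 38.9% in footprints and 43.1% in mRNA. The polyubiquitin gene UBI4 had footprints of 177 and 373 RPKM in DBP1 cells at 37C, against 88.0, 134 and 105 RPKM in DBP1 cells at 30C. UBI4 in DED1 cells had 411 and 514 RPKM at 37C, against 75.8, 68.6 and 54.9 RPKM at 30C. It rose by 1.25 in DBP1 cells (adjusted p = 0.00756) and by 2.78 in DED1 cells (adjusted p = 9.1e-05), and the call in DBP1 cells ended without replicate 2 at 37C (0.71, adjusted p = 0.0567). RPS31, which fuses ubiquitin to a ribosomal protein, fell by 0.46 and 0.63 on the log2 scale in DBP1 and DED1 cells. UBI4, RPS31 and the RPL40 genes share the ubiquitin repeat, and UBC4 and UBC5 are near copies, so reads counted to them may be split uncertainly.

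UBC4, a ubiquitin-conjugating enzyme gene, rose in footprints by 0.88 in DBP1 cells (adjusted p = 0.000307) and by 0.70 in DED1 cells (adjusted p = 0.000875). Its paralog UBC5 fell by 1.16 on the log2 scale in DBP1 cells (adjusted p = 9.18e-05) and did not pass in DED1 cells. DDI1, a shuttle protein for ubiquitinated substrates, rose by 0.97 and 1.18, and the ligase gene UFD4 by 0.72 and 0.66. The essential ligase gene RSP5 fell by 0.49 and 0.38 on the log2 scale. The UFD4 call in DED1 cells ended without DED1 replicate 1 at 37C (adjusted p = 0.0555).

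Among 8 genes listed as regulators of RPN4, 7 were tested in footprints and 2 rose in each strain. The ligase gene UBR2 was not tested there, with footprints of 2.71 to 4.18 RPKM. In mRNA 4 of 8 rose in DBP1 cells and 6 in DED1 cells. The footprint count lies near the 21.2% of all tested genes that rose in DBP1 cells and below the 38.9% in DED1 cells. RAD6, the conjugating enzyme used for Rpn4 degradation, rose in footprints by 0.47 in DBP1 cells (adjusted p = 0.00483) and by 0.56 in DED1 cells (adjusted p = 0.00154). PDR3, a transcription factor, rose by 0.52 and 0.82, and the DBP1 call ended without 30C replicate 1 or 37C replicate 2 (adjusted p of 0.0532 and 0.132). HSF1, the heat shock transcription factor, rose in mRNA in DED1 cells by 0.65 (adjusted p = 0.00157). UBR1, a ubiquitin ligase gene, rose in mRNA by 0.42 and 0.50, and whether Ubr1 acts on Rpn4 was not tested. The UBR1 call in DBP1 cells ended without either of the DBP1 replicates at 37C. With median-of-ratios scaling the UBR1 difference was 0.26 in DBP1 cells (adjusted p = 0.0949) and 0.25 in DED1 cells (adjusted p = 0.0984), and neither passed.

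With median-of-ratios scaling fewer of these genes rose in both strains. The mRNA counts in DBP1 cells were 1 of 9 chaperones and 2 of 6 proteasome-associated genes. For the ubiquitin genes the count was 5 of 19, and for the listed regulators of RPN4 it was 1 of 8. There 13.4% of all tested genes rose, and 2 chaperones fell. The mRNA counts in DED1 cells, in the same order of lists, were 3 of 9, 3 of 6, 5 of 19 and 1 of 8, where 17.8% of all tested genes rose. The footprint counts in DED1 cells were 4 of 9, 3 of 6, 6 of 19 and 2 of 7, where 20.9% of all tested genes rose. In DBP1 cells the footprint counts were 3 of 9, 4 of 6, 6 of 19 and 2 of 7, where 15.4% of all tested genes rose, with 1 chaperone lower, and the median of the 9 chaperones was -0.14 with that scaling and -0.06 without it.

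In translation efficiency 3 of these genes passed at 37C against 30C. FUB1 rose by 0.71 (adjusted p = 0.0221) and UBR1 fell by 0.69 on the log2 scale (adjusted p = 0.0404) in DED1 cells, and RSP5 fell by 0.65 (adjusted p = 0.0231) in DBP1 cells. Each call ended without single libraries. For RSP5 the adjusted p was highest, at 0.367, without DBP1 replicate 2 at 37C. For FUB1 it was highest, at 0.216, without DED1 replicate 1 at 37C. The UBR1 call ended without any one of the 10 replicates, with a highest adjusted p of 0.303 without DED1 replicate 2 at 37C.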

How the data were processed

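Values were taken from the authors' deposited table of RPKM for 6679 genes in 20 libraries. Per the submitters' processing notes, CASAVA, bcl2fastq 2.17 and Bowtie2 took part. The build, the counter and the handling of paralogs were not given in the sources used here. A second header line names 1 mRNA column a footprint column and miswrites a strain number in 2 columns, and the sample labels were followed. Gene names came from RefSeq for strain S288C. Reads were recovered from steps between low values, within a tolerance of 0.02 of whole reads.

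Expression was modelled on the log2(RPKM + 1) scale. The fit used limma 3.58.1 (R 4.3.3), took in the 10 libraries of the assay and had a mean for each group and a trended prior. Folds are therefore those of RPKM + 1. A gene needed a mean of at least 5 RPKM, which left 5454 genes in mRNA, 4986 in footprints and 4977 for translation efficiency. Efficiency was tested in 1 model over all libraries. Tests were two-sided, with Benjamini-Hochberg adjustment over all tested genes and a threshold of 0.05. The procedure was tested on simulated data.

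The members and gene lists were chosen with earlier results of these data known. Values in every library are given for RPN4, UMP1, BLM10 and ECM29 and for the 2 members per subcomplex with the smallest adjusted p in mRNA or footprints. Also named are the highest and lowest subunit in footprints per subcomplex, members called in efficiency, and up to 4 called genes per pathway list and assay. PUP1, PUP3, RPN10 and RPN13 were chosen after their values were seen. Deviations of footprint and mRNA libraries with the same number correlated at 0.24 to 0.62 in the 3 pairs of each strain at 30C. At 37C the 2 pairs of a strain give the same value by construction, 0.65 in DBP1 cells and 0.55 in DED1 cells. These libraries were therefore treated as paired in an alternative for translation efficiency. Others were a pseudocount of 0.1, no filter, median-of-ratios scaling, a replicate block and leaving out each replicate of a group, in both assays, in turn.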

Additional observations from a re-analysis of the deposited data

Results flagged for a closer look

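None of the 36 proteasome genes passed the test of whether the difference between DBP1 and DED1 cells itself differs between 37C and 30C. Among the genes around the proteasome 5 of 41 passed it in footprints, where 12% of all tested genes did so, and 2 of 42 in mRNA, where 5.23% did so. These shares are near those of all tested genes. The difference at 37C minus that at 30C was below 0 in each of those that passed. Most tested genes were also below 0, with 33.8% above 0 in footprints and 36.2% in mRNA. UBC5, a ubiquitin-conjugating enzyme gene, had footprints of 28.8 and 21.1 RPKM in DBP1 cells at 37C, against 42.0 and 41.4 RPKM in DED1 cells at 37C. At 30C it had 58.3, 52.5 and 58.5 RPKM in DBP1 cells, against 36.6, 36.2 and 38.5 RPKM in DED1 cells. DBP1 cells were thus below DED1 cells at 37C and above them at 30C. The value for UBC5 was -1.32 (log2, limma, adjusted p = 0.0022) in footprints and -1.17 (adjusted p = 0.00908) in mRNA. The footprint call held without each replicate in turn, and the mRNA call ended without DED1 replicate 1 at 37C (adjusted p = 0.0517). UBC5 has a near copy, UBC4, and shared reads are uncertain.

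TMA17, a base chaperone gene, had footprints of 146 and 181 RPKM in DBP1 cells at 37C, against 221 and 219 RPKM in DED1 cells at 37C. At 30C it had 191, 248 and 210 RPKM in DBP1 cells, against 153, 129 and 106 RPKM in DED1 cells. The value was -1.18 (adjusted p = 0.0137) in footprints and -1.08 (adjusted p = 0.0256) in mRNA. The footprint call ended without DED1 replicate 1 at 37C (adjusted p = 0.0518), and the mRNA call ended without any one of 6 replicates (adjusted p of 0.0511 to 0.0895). In footprints the value was -0.66 for FUB1 (adjusted p = 0.0273), -0.52 for SPG5 (adjusted p = 0.0288) and -1.54 for UBI4 (adjusted p = 0.0400). With median-of-ratios scaling these 3 calls ended, with adjusted p of 0.0546, 0.0659 and 0.0609, and each also ended without single libraries.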

How the results depend on the processing

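In all comparisons the counts of proteasome genes past the test stayed within 1.5 times with a pseudocount of 0.1 and without the filter on low values. At 37C against 30C, median-of-ratios scaling gave 15 genes in DBP1 cells and 3 in DED1 cells in footprints, and 1 in DED1 cells in mRNA. With the replicate number within a temperature as a replicate block across strains, the mRNA counts were 11 in DBP1 cells and 13 in DED1 cells, the footprint counts were 26 and 30, and no count between strains changed. Strain libraries share only a number: at 30C the deviations of the 3 same-numbered pairs correlated at -0.06, -0.02 and 0.29 in mRNA and at -0.16, 0.07 and 0.36 in footprints. At 37C the 2 pairs give the same value by construction, 0.36 in mRNA and 0.48 in footprints. In translation efficiency the block pairs footprints with mRNA, and the counts were 2 in DBP1 cells and 1 in DED1 cells. Leaving out each replicate in turn gave 5 to 26 genes in DBP1 cells and 7 to 31 in DED1 cells in footprints, and 1 to 14 in DBP1 cells and 3 to 10 in DED1 cells in mRNA. The count was 0 to 1 for footprints of DBP1 against DED1 cells at 37C and for the comparison of temperature differences in footprints and in mRNA, where the 1 gene was RPN4. It was 0 in all other comparisons. None of the called differences of the named members that were recomputed changed direction. Among those not called, median-of-ratios scaling turned the mRNA difference negative for SCL1, PRE1, PRE2 and RPN11 in both strains and for RPN8 in DED1 cells.

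The 2 libraries per strain and assay at 37C limit these tests, and leaving 1 out assumes that the lone library varies like the others. Intervals cover the spread between libraries of 1 strain per genotype. No sequence of these genes was used here.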

Other observations

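Around the proteasome, 3 of 42 genes differed between the strains in mRNA at 30C and 4 of 41 in footprints, where 9.3% and 13.5% of all tested genes did so. None of the 36 proteasome genes passed. TMA17 was higher in DBP1 than in DED1 cells by 0.70 in mRNA (log2, limma, adjusted p = 0.0142) and by 0.74 in footprints (adjusted p = 0.0101). UBC5 was higher by 0.50 in mRNA (adjusted p = 0.0325) and by 0.59 in footprints (adjusted p = 0.00794). FUB1 footprints were higher by 0.38 (adjusted p = 0.0326). RAD23, which encodes a shuttle protein for ubiquitinated substrates, was lower in footprints, with a log2 difference of -0.25 (adjusted p = 0.0372). UBI4 mRNA was 144, 192 and 141 RPKM in DBP1 cells at 30C, against 107, 87.9 and 69.8 RPKM in DED1 cells at 30C, with no overlap and an adjusted p of 0.0495. The UBI4 call ended with a pseudocount of 0.1, without the filter and with median-of-ratios scaling (adjusted p of 0.0501, 0.0654 and 0.0558), and it held without only 3 of the 10 replicates in turn (adjusted p up to 0.175). The FUB1 call ended with median-of-ratios scaling (adjusted p = 0.0571) and, like that of RAD23, without single replicates (adjusted p up to 0.111 and 0.108). The mRNA calls of TMA17 and UBC5 ended without single libraries at 30C, with adjusted p of up to 0.0552 and 0.111.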
